A study of Caenorhabditis elegans with 2 samples.

Results

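In *Caenorhabditis elegans* a chain of regulators sets the sexual fate of somatic cells, and it ends in TRA-1, a zinc-finger protein related to the GLI transcription factors. It promotes female development, largely by repressing genes for male development, and in the germ line it acts on the choice between sperm and oocytes. A promoter is the stretch of DNA before a gene at which transcription begins, and where neighbouring genes point away from each other a single stretch can serve as the promoter of both. Described here are the TRA-1 sites whose highest point lay in the promoters of autosomal genes, outside the genes themselves.

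The sites came from chromatin immunoprecipitation and sequencing (ChIP-seq) of whole L4 larvae, aged 48 h, in 2 biological replicates of 1 group. The worms were of strain DZ840, which carries the allele tra-1(ez72), a CRISPR insertion on III that adds biotag, GFP, TEV and 3xflag sequences to tra-1 at its own locus. The larvae were synchronised by bleaching and starvation at the L1 stage, and an antibody against GFP was used. Sex was not collected, no second strain or condition was measured, and a whole larva mixes all of its cell types. The data are the authors' peak lists on the ce11 build, and since these lists give no numbers of reads, the depth of the libraries is unknown.

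Of the 2703 sites in the authors' list of both replicates, 595 (22.01%, 95% Wilson interval 20.5 to 23.6%) were promoter sites by the rule used here. The summit, the position of the peak's highest point, had to lie on an autosome, outside every protein-coding gene of the Ensembl WBcel235 annotation and more than 100 bp from any tRNA gene. It also had to lie within 1000 bp upstream of the start of a protein-coding transcript. The rule concerns the summit only, and with the whole peak required to lie outside protein-coding genes there were 399 sites. The 595 sites made up 29.2% of the 2037 autosomal sites and covered 579 separate regions in 562 gaps between genes. They lay upstream of 738 genes, which are 4.56% of the 16195 autosomal protein-coding genes that could have such a site, and for 574 of these the start was the nearest one. A single gene was in reach of 437 sites, 149 sites had 2 genes in reach and 9 had 3. Intervals over sites cover counting error only, and no test between classes of sites was made.

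At the 1000 bp bound, the farthest site included lay 997 bp upstream of acbp-6 (signal 101.8) and the nearest one left out lay 1001 bp upstream of mstr-1 (signal 167.7). The rule on tRNA genes removed 23 sites. The nearest site kept lay 116 bp from a tRNA gene, upstream of K05F1.6 (signal 180.1), and the farthest site removed lay 46 bp from one, upstream of cpr-9 and gcy-33 (signal 139.4).

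Several of the strongest promoter sites shared short runs of sequence. The windows below, the summit with 50 bp to each side, were read from the genome on the plus strand, 5′ to 3′, and show the 5 strongest sites with ACACGCT. Capitals mark ACACGCT and CATACAC or their reverse complements. The sites lay at chrIII:10759200-10759300 (signal 765), chrIII:3867523-3867623 (758.6), chrIV:654873-654973 (531.5), chrIII:7854630-7854730 (488.2) and chrII:10563538-10563638 (452.4).
tasp-1 and K01G5.10: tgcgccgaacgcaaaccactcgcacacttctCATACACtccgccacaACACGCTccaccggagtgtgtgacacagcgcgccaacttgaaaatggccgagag
rpl-3: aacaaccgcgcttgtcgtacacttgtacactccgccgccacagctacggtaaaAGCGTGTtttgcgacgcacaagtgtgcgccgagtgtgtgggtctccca
rpl-15 and K11H12.8: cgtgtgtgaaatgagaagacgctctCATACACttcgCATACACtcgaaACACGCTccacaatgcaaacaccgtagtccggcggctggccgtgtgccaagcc
rpl-35: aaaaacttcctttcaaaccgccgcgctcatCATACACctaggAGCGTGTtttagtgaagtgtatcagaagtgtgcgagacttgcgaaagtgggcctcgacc
cdc-48.1: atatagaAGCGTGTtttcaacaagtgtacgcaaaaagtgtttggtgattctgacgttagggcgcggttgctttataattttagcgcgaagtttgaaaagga

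Both words were picked from these sequences after their signals were known, so the counts that follow describe them and support nothing. Searched on both strands, ACACGCT lay within 50 bp of 18 of the 595 summits (3.03%, interval 1.92 to 4.73%), against 0.445% of all 90922 tiles of the same length cut from the eligible bases and 0.800% of tiles weighted to the sites' G and C content. Shares at comparable sites were 1.31% for autosomal sites farther from genes, 1.53% for those in introns and 1.19% for promoter sites on X. Eligible bases are all autosomal bases that meet the position rule. With the sites split by signal into 4 groups of nearly equal size, 13 of the 149 sites in the highest group held the word, and the lower groups held 1, 3 and 1. CATACAC lay at 13 summits (2.18%), against 0.698% of tiles and 1.04% of the weighted tiles. Its share was 2.80% at distal autosomal, 2.68% at intronic and 5.36% at X promoter sites, so that it was not particular to the autosomal promoter sites. By signal it was found at 7, 2, 2 and 2 sites from the strongest to the weakest group. Of the 20 strongest sites, 7 held one word or both, against 27 of all 595 sites. Among the 24 sites upstream of a ribosomal protein gene, 5 held one or both, and among the other 571 sites 22 did.

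A different word, GAGACGC, marked other strong sites, shown for its 4 strongest carriers and for mab-3, a gene for a DM-domain factor of male development. Capitals mark GAGACGC or its reverse complement in the same kind of window, on the plus strand of ce11. The windows lay at chrII:11759414-11759514 (signal 556.6), chrII:5844755-5844855 (351.8), chrV:10897314-10897414 (347.3), chrIII:13643689-13643789 (346) and chrII:9732011-9732111 (325.5).
F44E5.4 and F44E5.5: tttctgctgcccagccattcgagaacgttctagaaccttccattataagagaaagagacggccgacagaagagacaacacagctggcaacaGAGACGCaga
H41C03.3: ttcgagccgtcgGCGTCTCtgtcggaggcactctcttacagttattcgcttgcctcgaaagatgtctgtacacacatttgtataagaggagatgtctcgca
sec-61.G and F32D8.13: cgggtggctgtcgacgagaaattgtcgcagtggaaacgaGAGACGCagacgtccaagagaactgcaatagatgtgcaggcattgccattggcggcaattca
drr-2 and set-16: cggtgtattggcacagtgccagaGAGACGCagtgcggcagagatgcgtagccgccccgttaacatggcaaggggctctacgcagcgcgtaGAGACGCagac
mab-3: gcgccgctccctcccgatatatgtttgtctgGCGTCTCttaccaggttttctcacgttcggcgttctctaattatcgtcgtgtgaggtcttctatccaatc

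GAGACGC, known from earlier results of these data, lay at 59 of the 595 summits (9.92%, interval 7.77 to 12.6%) and in 1.26% of all tiles. The member windows were richer in G and C, at 45.9% ± 8.86 (SD over 595 sites) against 33.6% ± 8.22 in the tiles. With the tiles weighted to the members' G and C content, 4.27% held the word. It was present at 8.04% of autosomal sites farther from genes, at 8.79% of those in introns and at 5.95% of promoter sites on X, with no test between them. From the strongest to the weakest of the 4 signal groups, 13.4%, 8.72%, 8.78% and 8.72% of promoter sites held it. Of its 65 copies within 50 bp of a summit, 25 lay on the strand of the nearest gene and 40 on the other.

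The word GCGCCAG is shown because its share was lower at sites away from promoters. The 4 windows are its strongest carriers with a printed sequence, at chrV:9789983-9790083 (signal 274.7), chrII:10248480-10248580 (268.5), chrIV:17249848-17249948 (224.8) and chrIII:3460222-3460322 (205.4). They are read on the plus strand, with GCGCCAG or its reverse complement in capitals.
ztf-7: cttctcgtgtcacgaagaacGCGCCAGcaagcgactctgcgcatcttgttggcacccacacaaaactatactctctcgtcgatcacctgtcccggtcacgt
atad-3 and nrde-2: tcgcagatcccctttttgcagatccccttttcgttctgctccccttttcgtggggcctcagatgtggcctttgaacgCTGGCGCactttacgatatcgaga
eelo-2: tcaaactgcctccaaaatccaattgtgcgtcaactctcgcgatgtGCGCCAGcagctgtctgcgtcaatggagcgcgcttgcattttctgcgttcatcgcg
C34C12.8: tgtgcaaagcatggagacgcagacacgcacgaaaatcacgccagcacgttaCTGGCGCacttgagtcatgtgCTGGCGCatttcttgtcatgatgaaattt

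GCGCCAG, chosen after its values were seen, lay at 33 of the 595 promoter summits (5.55%, interval 3.98 to 7.69%), against 0.547% of tiles and 1.60% of tiles weighted for G and C content. It was found at 1.12% of autosomal sites farther from genes, at 1.72% of those in introns and at 4.17% of promoter sites on X. Between starts on opposite strands lay 39.4% of the sites that held it. The median distance from its 38 copies near summits to the nearest start was 230.5 bp (quartiles 132.5 and 275.2). Both GCGCCAG and GAGACGC lay at 5 sites, and one or both at 87.

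The TRA-1 core, TGGGTGGTC, was present near few promoter summits. An exact copy lay within 50 bp of 5 summits (0.840%), against 0.0341% of tiles and 0.0870% of tiles weighted for G and C content. These were the sites of fog-1, snpc-1.3, sod-4 and, at both of its sites, fog-3. With at most 1 mismatch the core lay at 12 summits (2.02%), against 0.759% of tiles and 1.89% of the weighted tiles. Its share with at most 1 mismatch was 2.06% at distal autosomal, 2.10% at intronic and 1.19% at X promoter sites. An exact copy lay at 0.191% of intronic sites and at 0% of distal autosomal and X promoter sites. The windows of myrf-1 at chrII:10502799-10502899 (signal 130.1) and snpc-1.3 at chrV:5439196-5439296 (signal 111.6), a factor of piRNA gene transcription, show a copy with 1 mismatch and an exact copy, on the plus strand with the match in capitals.
myrf-1: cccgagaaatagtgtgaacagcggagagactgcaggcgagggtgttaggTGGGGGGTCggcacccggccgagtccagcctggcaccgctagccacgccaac
snpc-1.3: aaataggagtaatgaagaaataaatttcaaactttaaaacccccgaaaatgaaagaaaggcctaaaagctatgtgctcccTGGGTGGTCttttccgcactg

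TGATAAG, which contains the GATA letters recognised by GATA factors, lay at 56 promoter summits (9.41%, interval 7.32 to 12.03%), against 2.44% of tiles and 1.72% of the weighted tiles. Only 3.57% of the sites with TGATAAG lay between divergent starts, while 24.2% of all promoter sites did. It was found at 15.5% of promoter sites on X, 10.5% of distal autosomal sites and 9.94% of intronic ones. The strongest carrier lay upstream of B0507.3, at chrV:8768613-8768713 (signal 323.5).
B0507.3: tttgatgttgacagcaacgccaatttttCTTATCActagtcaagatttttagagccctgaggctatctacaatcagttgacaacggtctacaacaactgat

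**Figure D1:**
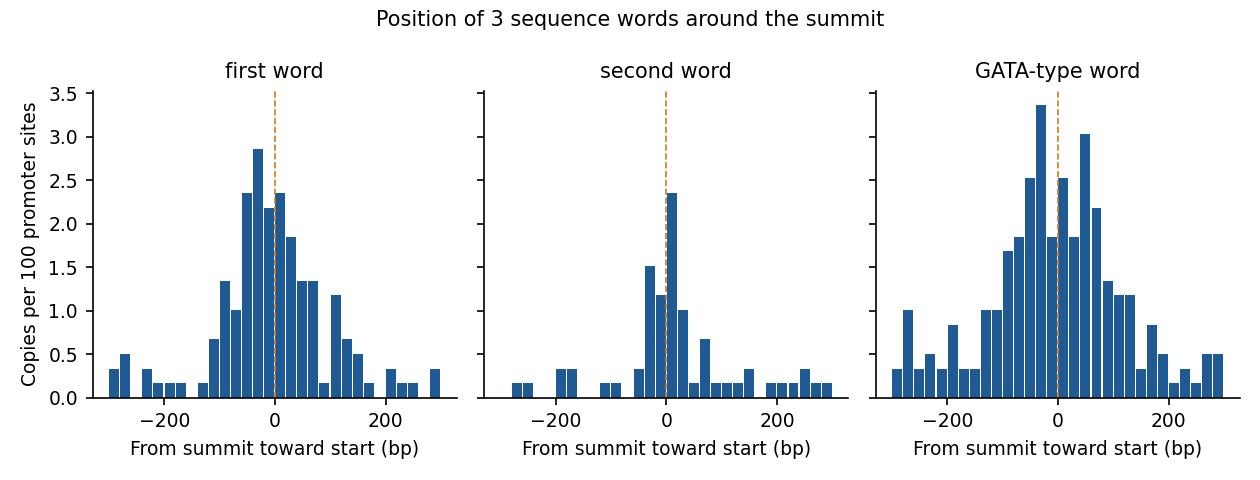
Copies per 100 promoter sites of the first word (GAGACGC), the second word (GCGCCAG) and the GATA-type word (TGATAAG) in bins of 20 bp around the summit, with positive distances toward the nearest start. The first word reached 2.86 copies per 100 sites at 40 to 21 bp before the summit, the second 2.35 at 0 to 19 bp after it, and the GATA-type word 3.36 at 40 to 21 bp before it.

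Other words, also searched on both strands, are given for comparison. The end of CATACAC can overlap the beginning of ACACGCT, and CTCTCTC can overlap the end of the reverse complement of GAGACGC. The repeat CTCTCTC lay at 8.57% of promoter summits, 1.88% of tiles and 5.08% of the weighted tiles, and the E-box CACGTG at 5.55%, 1.64% and 2.69%. Neither was particular to the autosomal promoter sites. CTCTCTC lay at 12.3% of distal autosomal, 11.1% of intronic and 7.74% of X promoter sites. For CACGTG these shares were 9.72%, 9.56% and 7.74%. GGGCGGG was found at 3.03% of summits, 0.577% of tiles and 3.06% of the weighted tiles, and TATAAAA at 3.36%, 7.36% and 3.07%. The corresponding shares were 0.840%, 1.14% and 0.984% for TGACTCA and 4.03%, 7.42% and 4.84% for GAANNTTC. A match describes the letters of the window and does not show a binding site, and a window without one shows only that these letters are not in it.

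The promoter sites were most dense between 100 and 300 bp upstream of the start. The median distance from summit to nearest start was 249 bp (quartiles 133 and 439.5, range 1 to 997), while the median eligible base lay at 384 bp. Within 300 bp lay 353 sites (59.3%), against 40.9% of the eligible bases, and beyond 500 bp lay 128 (21.5%), against 38.6%. Per Mb of eligible sequence there were 63.2 sites (95% Poisson interval 46.9 to 83.3) at 1 to 50 bp and 92.6 (interval 77.2 to 110.3) between 100 and 200 bp. Between 200 and 300 bp the density was 92.4 sites per Mb, between 400 and 500 bp 41.4 and between 900 and 1000 bp 32.7. The density over all distances was 58.7 sites per Mb.

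Many worm transcripts receive a spliced leader in place of their own first bases, so the annotated start is often not where transcription begins. For 55 of the 595 sites the nearest annotated start was the start codon itself, and the median 5′ UTR of the nearest transcripts was 20 bp. The distances are therefore to the annotated start. Within 10 bp of a start lay 8 sites, or 1.34% of sites against 1.57% of eligible bases. The strongest 5 were those of Y39B6A.43 (8 bp, signal 291.8), etr-1, which encodes an RNA-binding protein (1 bp, 160.5), cdk-7, a kinase of the transcription machinery (7 bp, 155.9), the bZIP factor gene zip-4 (6 bp, 151.8) and the nuclear hormone receptor gene nhr-47 (1 bp, 124.2).

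**Figure D2:**
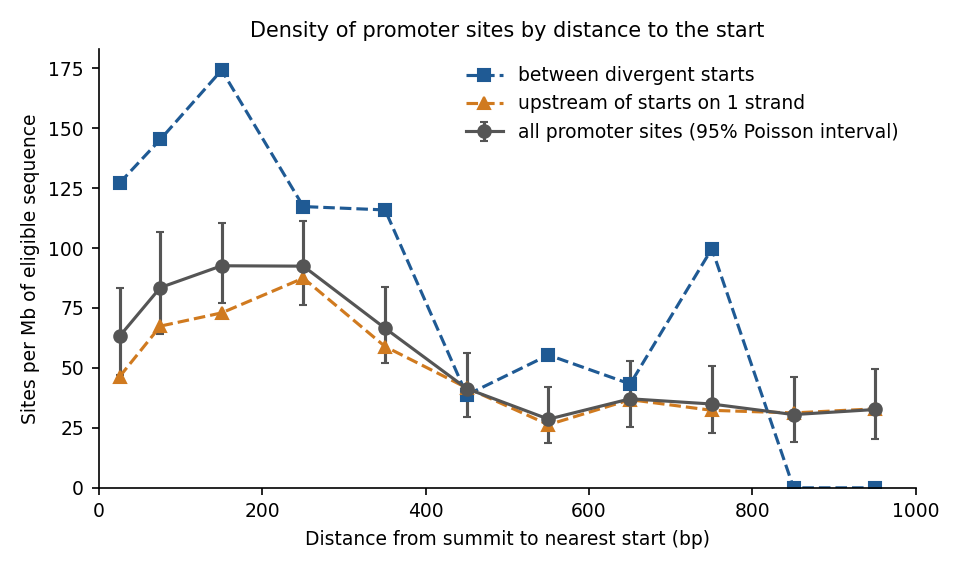
Promoter sites per Mb of eligible sequence against the distance from the summit to the nearest start, for all sites with 95% Poisson intervals, for sites between divergent starts and for sites upstream of starts on 1 strand. The density of all sites peaked at 92.6 per Mb between 100 and 200 bp, and the divergent points beyond 400 bp rest on 4 or fewer sites each.

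Sites between divergent starts were common. A total of 144 sites (24.2%, interval 20.9 to 27.8%) lay within 1000 bp upstream of starts on both strands, a position held by 11.96% of the eligible bases. This gives 118.8 sites per Mb of divergent sequence and 50.5 per Mb of the rest. At equal distance to the nearest start the densities also stood apart up to 400 bp, with 174.2 and 73.0 sites per Mb between 100 and 200 bp. Between 200 and 300 bp they were 117.3 and 87.5, and between 400 and 500 bp 38.7 and 41.7. No test between these densities was made.

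The median divergent summit lay 169.5 bp from the nearer start (quartiles 69 and 267.5) and 409 bp from the start on the other strand (quartiles 250.5 and 645.2). The starts of a pair were a median of 581.5 bp apart. Of the 144 sites, 89 lay within 500 bp of both starts and 36 within 250 bp of both. With the stretch between the starts cut into 3 equal parts, the middle part held 65 sites (45.1%), against 42.6% of the eligible divergent bases. The median signal was 128.5 at divergent sites (quartiles 93.1 and 180.2) and 110.3 at the others (87.3 and 151.5), so the middle ranges overlapped. Of the divergent sites, 67 (46.5%, interval 38.6 to 54.7%) were in both replicates' own lists, against 163 of the others (36.1%, interval 31.8 to 40.7%).

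By the gaps between genes, 309 sites (51.9%, interval 47.9 to 55.9%) lay between genes that point away from each other, which hold 43.4% of the eligible bases. Of the 3641 such gaps, 286 (7.86%) had a site. Between genes that follow each other on a strand lay 285 sites, in 275 of 8706 gaps (3.16%). Taken over sites, the median gap was 1481 bp against 1188 bp over all head-to-head gaps, and 1062 against 778.5 bp over all tandem ones. A gap with several sites was thus counted several times. The single site in a gap where 2 genes end was that of H41C03.3, 972 bp upstream of its start, with a signal of 351.8. The gap is 633 bp long, so sequence of another gene lay between this summit and the start.

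**Figure D3:**
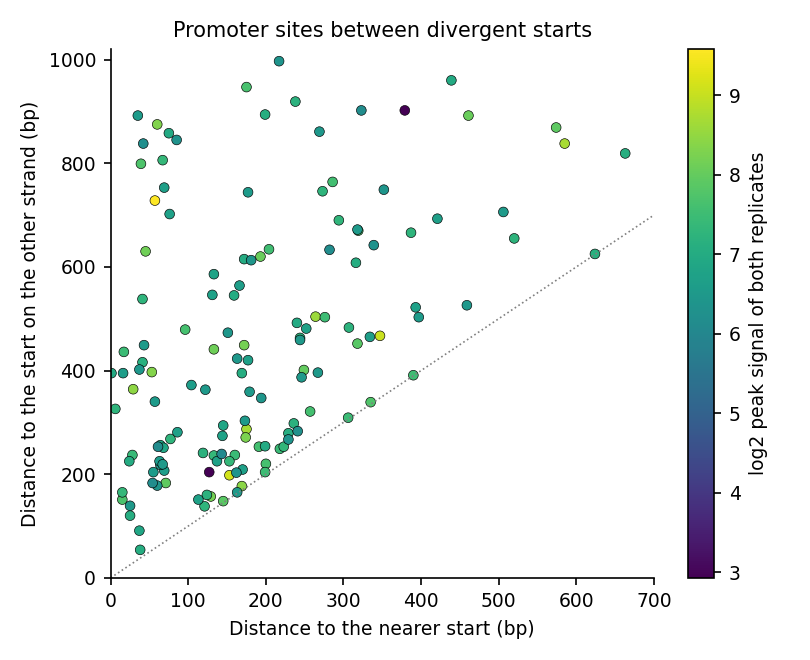
Distance to the start on the other strand against distance to the nearer start, both in bp, for the 144 sites between divergent starts, coloured by the log2 of the peak signal. Most points lie in the lower left, with 89 sites within 500 bp of both starts, and the dotted line marks equal distances.

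The 10 strongest divergent sites lay between genes of varied roles, with ribosomal protein genes at 4 of them. The strongest, 57 bp from tasp-1, which encodes a threonine aspartase, and 728 bp from K01G5.10, had a peak signal of 432 in replicate 1 and 345 in replicate 2. That of rpl-15 (347 bp) and K11H12.8 (467 bp) had 290 and 240.8. The site of Y17G9B.5 (175 bp) and rpl-20 (287 bp) had 234.3 and 173.8, and that of rps-1 (264 bp) and ifet-1 (504 bp), a gene for an eIF4E-binding translation repressor, had 216.6 and 153.9. All of these signals were higher in replicate 1. The site of rpl-12 (29 bp) and lin-54 (364 bp), which encodes a DNA-binding subunit of the DREAM complex, had 200.4 and 144.8. That of drr-2 (169 bp) and set-16 (177 bp), a histone H3 lysine methyltransferase gene, lay almost midway, with 176.5 and 165.9.

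The other strong divergent sites lay at tag-340 (585 bp) and nhl-2 (838 bp), with 250.7 and 161.9, at H12C20.7 (53 bp) and nhr-68 (397 bp), with 177.9 and 147.8, and at iff-2 (60 bp) and F54C9.14 (875 bp), with 193.6 and 119.3. The gene iff-2 encodes the translation factor eIF5A, and nhl-2 a protein of the microRNA pathway. The second strongest divergent site, between the heat shock genes F44E5.4 (153 bp) and F44E5.5 (198 bp), had 345.2 and 206.7. These genes are inverted copies. Of the 12-base words of their 350 bp gap, 37.8% also occurred on the gap's other strand, against at most 0.499% for the gaps of the other 9. Reads from such repeats may not be placed uniquely, and how the authors treated them is not given in the sources used here.

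Among the 20 strongest promoter sites, those upstream of single genes or of genes on 1 strand were led by fog-1, a germline gene required for sperm fate. Its signals were 458.4 and 425.2 in replicates 1 and 2, with the summit 574 bp from the start. The site of rpl-3, a large-subunit ribosomal protein gene, had 440 and 333.3 (281 bp), and that of mog-4, an RNA helicase gene needed for the switch from sperm to oocytes, had 365.2 and 228.2 (257 bp). The rank order of these 3 was the same in each replicate. The site of cdc-48.1, a AAA ATPase of protein extraction and degradation, had 269.2 and 187.6 (181 bp), and that of rpl-35 had 292.7 and 188.9 (454 bp). The ubiquitin ligase gene eel-1 had 297.1 and 160.5 at its stronger site (373 bp) and a further site 810 bp upstream. In the list of both replicates rpa-2, a replication protein A gene (632 bp), had a signal of 546.7, cnk-1, a scaffold of Ras signalling, 371.8 (306 bp), K12H4.5 371.7 (526 bp), tos-1, a gene known as a target of regulated splicing, 352 (67 bp), and sec-61.G, a subunit of the protein translocon, 347.3 (221 bp).

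Promoters were most frequent among the strongest sites of the list. They made up 36 of the 100 sites with the highest signal (36.0%, interval 27.3 to 45.8%), 26.2% of the next 400, 20.4% of ranks 1501 to 2000 and 17.4% of the rest. Among 76107 ranked sites below the threshold they made up 9.21%. The median signal was 111.9 for promoter sites (quartiles 89.4 and 156.1), 105.1 for distal autosomal sites and 100.9 for intronic ones. It was higher at sites within 100 bp of a tRNA gene (123.6) and at promoter sites on X (120.6), and 111.6 at distal sites on X. The range over promoter sites was 2.84 to 894.7. Of the 21 promoter sites with a signal under 30, 20 overlapped another site of the same list, against 28 of the other 574. In 20 of these 21 the signal was below that of the overlapping peak in each replicate's ranked list, which reached 38.3 to 73.0 in replicate 1 and 30.7 to 60.0 in replicate 2.

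The replicates' own thresholded lists both held 230 of the promoter sites (38.7%, interval 34.8 to 42.6%), which had a median signal of 175. Replicate 1 alone held 137 (median signal 108.4), replicate 2 alone 51 (109.3), and 177 (29.7%) were in neither (85.1). The shares in both lists were 33.5% (interval 29.6 to 37.6%) for distal autosomal sites, 32.1% for intronic ones and 45.2% (interval 37.9 to 52.8%) for promoter sites on X. Of the 149 promoter sites with the highest signal 96.6% were in both lists, and of the 149 with the lowest 2.68% were.

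In the replicates' ranked lists, 589 promoter sites had a value in both. The median signal was 64.95 in replicate 1 and 51.5 in replicate 2, and replicate 1 was higher at 457 sites (77.6%). The median log2 ratio of replicate 1 to replicate 2 was 0.30 (quartiles 0.03 and 0.64). These lists are not scaled to each other, so the ratio describes the lists and not the worms. The Spearman correlation was 0.623 across these sites, which share both libraries, and it is given as a description. Ratios over 2-fold were found at 40 sites, 38 of them higher in replicate 1. The site with the highest ratio, between top-2 and npp-3, had 106 and 32.6. The site of cbl-1, which encodes an enzyme of sulfur amino acid metabolism, had the lowest, 38.9 and 84.3. These are the values of the strongest overlapping peaks, and the site's signal in the list of both replicates, 33.2, was below each of them.

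**Figure D4:**
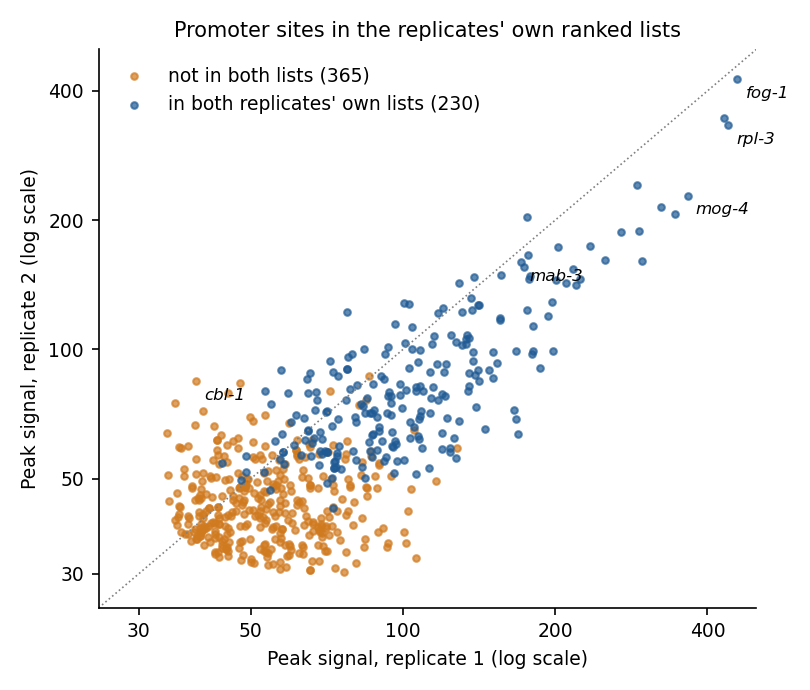
Peak signal of each promoter site in replicate 2 against replicate 1, taken from the ranked list of that replicate (highest overlapping peak), on log scales, coloured by presence in both thresholded lists. The 230 sites in both lists occupy the upper range, and fog-1 (458.4 and 425.2) is the highest in each replicate.

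The 4.56% of all autosomal genes with eligible upstream bases is the background for the gene classes. These classes were chosen with earlier results of these data known, and no test was made of any class. They were defined by patterns in gene names, so genes of like function with other names are not counted. Examples among the genes with a site, named after their values were seen, are the heat shock genes F44E5.4 and F44E5.5, the complex I genes nduf-2.2 (signals 137.7 and 98.4) and nduf-9 (65.4 and 88.1), the kinesin light chain gene klc-1 (64.95 and 64.5) and rpa-2. Shares also move with the length of upstream sequence that can hold a site. They were 1.38% for genes with at most 250 eligible bp, 7.15% over 250 and up to 500 bp, 5.42% over 500 and under 1000 bp, and 4.44% at 1000 bp or more.

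Ribosomal protein genes were the class with the highest share among those of 30 genes or more, with 25 of 77 (32.5%, interval 23.1 to 43.5%) against the 4.56% of all genes. Their median eligible upstream length was 566 bp, against 921 bp for all genes. The 24 sites concerned had a median signal of 179.5, against 111 for the other 571, and 58.3% of them were divergent, against 22.8%. In 66.7% of cases they were in both replicates' own lists, against 37.5%. For 16 of the 25 genes the site's nearest start was their own. After rpl-3, rpl-15, rpl-35 and rpl-20, the class ran through rps-1 and rpl-12 to rpl-7. By contrast the mitochondrial ribosomal protein genes had 5 of 67 (7.46%, interval 3.23 to 16.3%), with the strongest site upstream of mrps-21 (991 bp, signals 89.7 and 53.7).

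Other classes of broadly expressed genes also stood above the 4.56%, though the intervals of the cell cycle, proteasome and V-ATPase classes include it. Where several starts were in reach, a gene could have a site nearer to another start, and 3.54% of all autosomal genes had one as the nearest start. Of 39 genes for translation factors, 7 had a site (17.9%, interval 8.98 to 32.7%), 4 of them as the nearest start, led by ifet-1, iff-2, eif-3.C, a subunit of initiation factor eIF3 (237 bp, signals 123.7 and 57.6), and eef-2, the elongation factor that moves the ribosome along (28 bp, 107.6 and 61.7). Heat shock and chaperonin genes had 10 of 53 (18.9%, interval 10.6 to 31.4%), of which 4 were the nearest start. The strongest sites of the genes counted lay at cct-8, a subunit of the cytosolic chaperonin (449 bp, 176.1 and 123.8), dnj-28 (133 bp, 155.5 and 117.2), the mitochondrial chaperonin gene hsp-60 (620 bp, 167.6 and 99.3) and hsp-1, an HSP70 gene (394 bp, 136.5 and 131.5). All 8 of these sites were in both replicates' own lists.

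Of 53 splicing genes 7 had a site (13.2%), 4 as the nearest start, among them mog-4, prp-19 (630 bp, 138.3 and 147.6), a ubiquitin ligase of the spliceosome, and the SR protein genes rsp-2 (273 bp) and rsp-1 (746 bp), which share a site with signals of 64.5 and 85.4. Respiratory chain and ATP synthase genes had 6 of 38 (15.8%, interval 7.44 to 30.4%), 4 as the nearest start. The strongest of those counted were the cytochrome oxidase genes cox-5B (19 bp, 173.3 and 155.6) and cox-5A (288 bp, 167 and 68.8), then mev-1, a subunit of succinate dehydrogenase (138 bp, 89.5 and 64.7), and atp-3 (24 bp, 82.4 and 50.96). Chromatin genes had 11 of 75 (14.7%, interval 8.39 to 24.4%), 6 as the nearest start, led by set-16, cbp-1, a histone acetyltransferase gene of the CBP and p300 type (855 bp, 136.9 and 123.7), set-21 (183 bp, 150.6 and 98.4) and lin-53, a histone chaperone gene (249 bp, 99.6 and 72.9).

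Histone genes had 9 of 77 (11.7%, interval 6.27 to 20.8%), 5 as the nearest start. Their strongest site lay 93 bp upstream of his-37, with signals of 196.9 and 129.1, followed by the shared site of his-68 (133 bp) and his-67 (236 bp), with 74.3 and 86.6, and that of htz-1, the H2A.Z gene (303 bp, 68.1 and 37.9). Many histone genes are near-identical copies, so the gene a read came from is uncertain. Cytoskeletal and motor genes, a class of tubulins, actins, kinesins and dyneins, had 6 of 37 (16.2%), 4 as the nearest start, led by tbb-1 (225 bp, 107.5 and 68.9), tba-2 (129 bp, 92.8 and 71.1), act-5 (301 bp, 66.2 and 39.7) and act-2 (332 bp, 48.5 and 46.8). The actin genes are close copies too.

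Ubiquitin conjugation genes had 7 of 66 (10.6%), led by eel-1, ubc-6 (249 bp, 141.6 and 126.8), wwp-1 (215 bp, 104.9 and 66.0) and usp-4 (698 bp, 59.3 and 79.3). Cell cycle and replication genes had 6 of 64 (9.38%, interval 4.37 to 18.98%), all as the nearest start. The class holds cdc-48.1 through its name. The others included the sliding clamp gene pcn-1 (259 bp, 107 and 63.0), cdk-7 and mcm-3AP (217 bp, 48.0 and 50.6). Proteasome genes had 2 of 32 (6.25%, interval 1.73 to 20.15%), rpn-3 (191 bp, 83.8 and 100.2) and rpn-11 (21 bp, 78.4 and 47.7). V-ATPase genes had 2 of 17 (11.76%, interval 3.29 to 34.3%), vha-1 and vha-8.

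Most classes of regulators lay near the background. Nuclear hormone receptor genes had 11 of 241 (4.56%, interval 2.57 to 7.99%), with nhr-68, nhr-119 (413 bp, 88.9 and 69.5), nhr-135 (193 bp, 65.2 and 60.1) and nhr-47 (1 bp, 77.4 and 61.1) the strongest. Homeobox genes had 3 of 74 (4.05%, interval 1.39 to 11.25%), namely ceh-99 (947 bp), nob-1 (601 bp), a posterior Hox gene, and unc-42 (222 bp). Of 40 T-box and bHLH genes, hlh-11 and hlh-30 had a site (5%, interval 1.38 to 16.5%). Of 8 GATA factor genes egl-27 had one (12.5%, interval 2.24 to 47.1%). The small DM-domain class stood above the 4.56%, with a site at 2 of the 9 genes that could have one (22.2%, interval 6.32 to 54.7%). These were mab-3 (76 bp, 170.9 and 159.6) and dmd-7 (196 bp, 134.8 and 88.2). The P450, UGT and GST genes of detoxification had 7 of 168 (4.17%), led by gst-27 (336 bp, 104.3 and 99.9), ugt-49, ugt-41 and the adjacent cyp-33C7 and cyp-33C6.

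Large families expressed in few cells or conditions had shares below 4.56%, though the intervals of the collagen, F-box, MATH and BTB, and hedgehog-related classes include it. Chemoreceptor genes had 8 of 1218 (0.657%, interval 0.333 to 1.29%), with a median eligible upstream length of 1000 bp. The strongest were at srz-62 (458 bp, 165.9 and 72.2), sre-23 (615 bp, 121.4 and 92.6), srh-70 (175 bp, 129.1 and 68.1) and sri-5 (240 bp, 72.5 and 59.7). The site of srh-70 was also that of ceh-99. C-type lectin genes had 4 of 225 (1.78%, interval 0.694 to 4.48%), namely clec-78, clec-57, clec-186 and clec-41, and cuticle collagens 2 of 116 (1.72%), col-160 and col-159 at a shared site. F-box genes had 9 of 292 (3.08%, interval 1.63 to 5.75%), led by fbxc-29, fbxl-5, fbxl-2 and fbxa-55, and MATH and BTB genes 1 of 87, bath-42. Hedgehog-related and patched-related genes had 0 of 72, which allows a share of up to 5.06% (Wilson), and neuropeptide and insulin-like genes 0 of 102, up to 3.63%. None of 8 dosage compensation genes had a site.

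**Figure D5:**
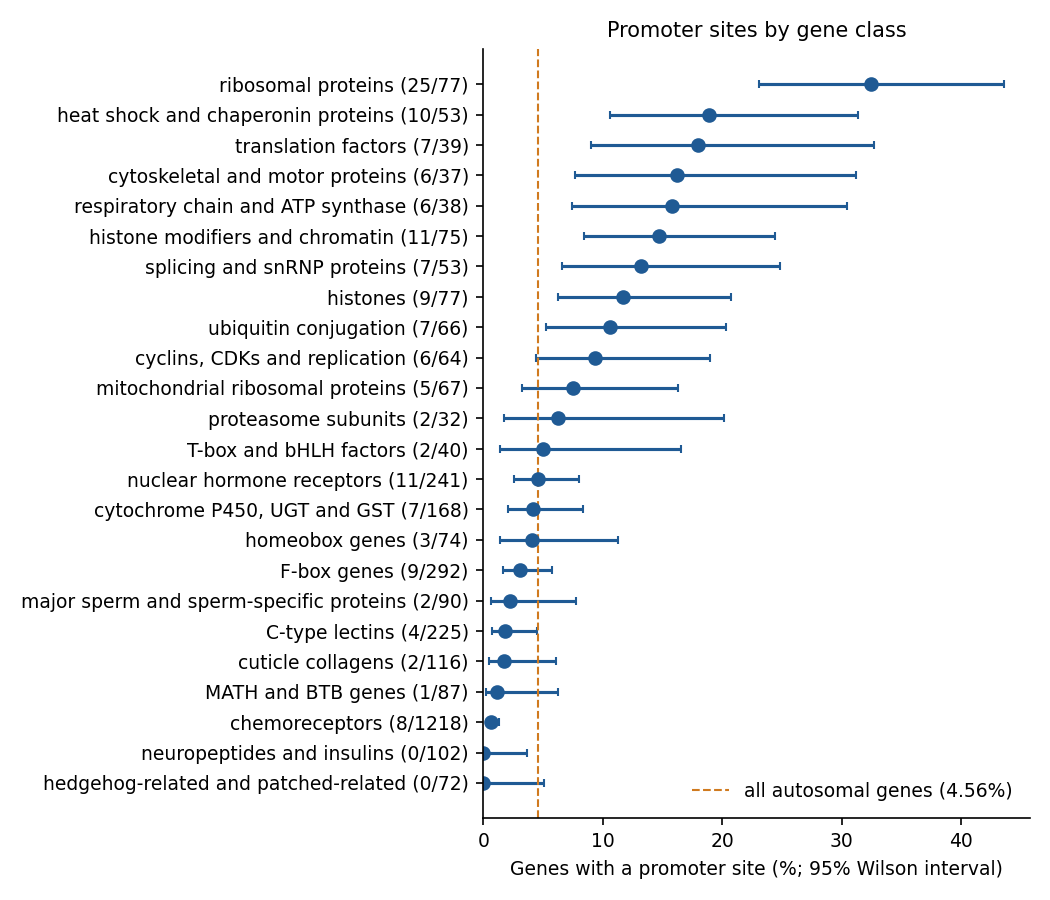
Percent of autosomal genes with a promoter site in each class of at least 30 genes, with 95% Wilson intervals and, in brackets, genes with a site over genes that could have one. The dashed line marks the 4.56% of all such genes, with ribosomal protein genes (32.5%) the highest and the hedgehog-related and neuropeptide classes at 0.

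Earlier work has named a set of TRA-1 targets, and of the 10 autosomal ones with eligible upstream bases, 5 had a promoter site, against 4.56% of all genes. Beside fog-1 and mab-3 they were daf-16, the FOXO factor of insulin signalling (376 bp, signals 90.3 and 86.7), tra-1 itself (556 bp, 65.9 and 60.4) and fog-3, a sperm fate gene (477 bp, 44.1 and 56.5 at the stronger of its 2 sites). The 5 thus ranged over most of the signal scale, from rank 1 for fog-1 to rank 447 for fog-3. Of the 11 such genes of the sex determination pathway, tra-1 was the single one with a promoter site. This is a share of 9.09% (interval 1.62 to 37.7%), an interval that includes the 4.56%. Among 18 genes of the switch between sperm and oocytes 5 had a promoter site (27.8%, interval 12.5 to 50.9%). They were fog-1, mog-4, atx-2 (39 bp, 100.2 and 128.1), an ataxin-2 homologue, fog-3 and the Nanos gene nos-3 (60 bp, 34.5 and 44.2).

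In other lists the counts were small, and they are set beside the same 4.56% of all genes. The shares were 10% for heterochronic genes (interval 1.79 to 40.4%) and 16.7% for insulin signalling (interval 4.70 to 44.8%). For the somatic gonad and male tail the share was 10.5% (interval 2.94 to 31.4%). The yolk protein gene vit-6, the single autosomal vitellogenin, had one 149 bp upstream with signals of 65.5 and 59.2. Of 10 heterochronic genes that could have a site, lin-46 had one (806 bp, 95.3 and 64.04), and of 29 genes of EGF, Wnt and Notch signalling none did, which allows up to 11.7% (Wilson). In insulin signalling daf-16 and par-5, a 14-3-3 gene (218 bp, 42.01 and 55.3), had a site among 12 genes. Among 19 genes of the somatic gonad and male tail, mab-3 and tra-1 had one. Genes that mark the tissues of a whole larva had sites at 2 of 28 for germline and oocyte proteins (mex-1 and cgh-1), 1 of 14 for muscle (act-2), 2 of 14 for intestine (lys-8 and act-5) and 1 of 20 for neurons (unc-25). The shares were 7.14% for germline and oocyte proteins, 7.14% for muscle, 14.3% for intestine and 5% for neurons. Each of their intervals includes the 4.56%. A site at such a gene does not show in which tissue TRA-1 was bound.

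Several promoter sites also lay close to short noncoding genes. Within 100 bp of the summit a small nucleolar RNA gene was annotated for 15 sites (2.52%, interval 1.53 to 4.12%), against 0.145% of the eligible bases, and a small nuclear RNA gene for 8 (1.34%, interval 0.683 to 2.63%), against 0.0687%. Genes annotated as ncRNA were that near for 71 sites (11.9%, interval 9.57 to 14.8%), against 2.76%. In the other direction, piRNA genes were near 4 sites (0.672%), against 2.20% of bases, and pseudogenes near 2 (0.336%), against 3.90%. For sites near both kinds of gene, the peak does not show which of them it belongs to.

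By chromosome, the density of promoter sites was 78.7 per Mb of eligible sequence on III, 70.1 on I, 69.9 on II, 48.8 on IV and 43.4 on V. The same rule applied to X gave 168 sites and 78.3 per Mb, within the range of the autosomes. The median signal ran from 106.2 on V to 121.6 on III and was 120.6 on X. The share of divergent sites ran from 19.01% on II to 30% on III.

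More than one site lay upstream of 24 genes, each with 2. In 16 of these genes the 2 sites overlapped, and in 8 they were separate. Those of eel-1 lay 373 and 810 bp upstream, those of the cytochrome oxidase gene cox-5B 19 and 749 bp, those of atx-2 39 and 634 bp and those of fog-3 20 and 477 bp.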

How the data were processed

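Peak lists of 2 biological replicates of TRA-1 ChIP-seq in L4 larvae were used, and the file names give the build as ce11. Not given in the sources used here: the aligner, the peak caller and how reads with several matches were treated. The score of a peak, deposited by the authors, rises as the irreproducible discovery rate (IDR) between replicates falls and is capped at 1000. The lowest score of a promoter site was 832, an IDR near 0.01. The deposited −log10 of the IDR was read from the ranked list. The signal of a peak is the authors' deposited value and was used only to describe and rank peaks within a list. Other deposited values, the summit offsets, gave the positions. Values per replicate are those of the strongest peak overlapping by at least 1 bp in that replicate's own ranked list. The labels call the replicates biological, and no p-value was computed.

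Genes came from Ensembl release 115 and sequence from the RefSeq genome of the same WBcel235 assembly, and every peak ended within its chromosome. Positions count from 1. Motif shares used summits ± 50 bp and all tiles of the same length of eligible bases, also weighted in classes of 5% G and C content. Of 234 names in the gene lists, 5 had no protein-coding match and were left out. One gene that the naming rule selects is not reported here.

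The sites, gene classes, lists and words were chosen with earlier results of these data known. Named genes were the 20 strongest sites, the 10 strongest divergent sites, up to 4 genes by signal per class or list (all for earlier targets and sex determination), sites at the 1000 bp bound, and up to 5 within 10 bp of a start. Carriers of words, genes with several sites, sites that differed most between replicates and sites at the tRNA bound were named after their values were seen. The alternatives were the second thresholded list, an IDR of at most 0.001, each replicate alone, other windows and other definitions of start, gene and overlap.

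Among 600 simulated positions, 179 met the rule by direct comparison with every gene, and all 179 were found with the same distance and pairing. This checks the coding of the rule and not the recovery of binding sites. The scripts ran under Python 3.11.15 with scipy 1.17.1, pandas 2.3.3 and numpy 2.4.6, and figures were drawn with matplotlib 3.10.9.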

Additional observations from a re-analysis of the deposited data

Results flagged for a closer look

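Of 73 sites of the ranked list that were at least as reproducible as the weakest site of the main list but were left out of it, 3 met the rule for promoter sites. They lay upstream of Y62E10A.3 on IV (signal 186.5), of cts-1 on III, which encodes citrate synthase (signal 127), and of fbxa-75 on III (signal 3.79). They stood out because they form a signal outside the list described above, and the reason for their absence was not tested.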

How the results depend on the processing

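The number of promoter sites was 595 in the main list, 314 with an IDR of at most 0.001, and 291 to 410 with 1 replicate left out, that is, in the other replicate's own list. The share between divergent starts was 24.2%, and 27.1 to 28.2% with 1 replicate left out. With 1 replicate left out the median distance to the start was 245.5 to 265 bp, against 249 bp. The share of autosomal genes with a site was 4.56%, and 2.32 to 3.27% with 1 replicate left out. It was 5.06% in the second thresholded list, 2.51% at an IDR of at most 0.001, 4.12% outside genes of every biotype, 2.98% with the whole peak outside genes and 3.54% with the nearest start only. The share of sites in both replicates' own lists was 38.7%, 34.8% in the second list and 71.7% at an IDR of at most 0.001, and could not be computed without a replicate. An upstream window of 500 bp gave a median distance of 196 bp, 19.1% divergent sites and 3.40% of genes, and one of 2000 bp gave 343 bp, 29.2% and 6.48%, where the window itself sets what can be counted. With the whole peak outside genes there were 399 sites, against 595, and the median distance was 324 bp. Leaving out the sites with a signal under 30, an alternative chosen after seeing the data, gave 574 sites, a median distance of 249.5 bp, 24.7% divergent sites, 4.50% of genes and 39.5% in both lists. Within 25 bp of the summit GAGACGC lay at 5.38% of sites, GCGCCAG at 3.70% and the core with at most 1 mismatch at 0.840%, and within 100 bp GAGACGC lay at 14.6%. For other changes the cause was not tested. Other rules on tRNA genes and on the 5′ end of genes gave 591 to 618 sites and median distances of 249 to 252 bp. No paired analysis was possible because there is 1 group with no contrast. Depth is unknown, since the lists hold no counts.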
